A study of Mus musculus with 8 samples.

Results

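Cadherins are cell surface proteins that join neighbouring cells through repeated extracellular domains, and their genes form a large family. The family examined here comprised the 95 protein-coding genes of the mouse RefSeq annotation (GRCm38, also called mm10) named Cdh, Pcdh or Celsr with a number or cluster suffix, of 21887 protein-coding genes outside the mitochondrial genome. They were taken by a symbol pattern, which was set with earlier results of these data known. The genes fell into 18 classical cadherins, 5 other Cdh genes, 57 protocadherins of the Pcdha, Pcdhb and Pcdhg clusters, 12 other protocadherins and 3 Celsr genes. The mark studied was H2AK119ub, mono-ubiquitinated histone H2A, in epidermal progenitor cells of newborn mice at postnatal day 0, sorted as EpCAM-positive, Sca1-positive cells with high α6-integrin. Eed cKO cells (labelled Eed-/-) and control cells each contributed 2 H2AK119ub libraries, from which the authors deposited 1 peak list per genotype. An input library of each genotype, and 1 H2AK119ub library and 1 input of Ring1a/b 2KO cells (labelled Ring1a-/- Ring1b-/-), complete the 8 libraries, and the 2KO library is not analysed here. The labels do not name the Cre driver of the conditional knockout, the alleles of the controls or the animals behind a library.

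H2AK119ub is placed by Polycomb repressive complex 1, and Eed is a core subunit of Polycomb repressive complex 2, which methylates lysine 27 of histone H3. Both complexes gather at CpG-rich promoters of genes that a cell type keeps silent. In the epidermis, E-cadherin (Cdh1) and P-cadherin (Cdh3) hold basal keratinocytes together at adherens junctions. Most other classical cadherins and protocadherins are known from neural, muscle, vascular or mesenchymal tissue, where they sort cells and guide connections.

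The Eed cKO list held 2541 peaks over 16.6 Mb and the control list 4621 peaks over 29.0 Mb. A peak came with a position and no height, so its width and place are the measured quantities. Read depth is unknown, and with 1 list per genotype there is no replicate error and no test of a difference between genotypes. Fewer peaks in a list can therefore come from less mark, fewer reads or a stricter call, which cannot be told apart. A peak list shows where the mark was called and not whether a gene is expressed. Of the basal keratinocyte markers Krt5, Krt14, Trp63, Itga6, Epcam, Ly6a and Cdh3, 0 of 7 had a peak at a gene end in either list. The leukocyte markers Ptprc, Cd3e and Cd207 had a peak in 0 of 3 cases in either list. Among melanocyte and fibroblast markers, Sox10 and Pdgfra had one in control alone, and Mitf, Dct and Col1a1 in neither list. Of all protein-coding genes, 7.40% had such a peak in Eed cKO and 11.7% in control. At these shares so few markers say nothing about which cells were sorted.

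A gene was called marked where a peak came within 2000 bp of the start or end of its span. In Eed cKO, 9 of the 95 members were marked (9.47%, 95% Wilson interval 5.06 to 17.0), where 7.40% of all protein-coding genes were. In control, 13 of 95 were marked (13.7%, 8.17 to 22.0), where 11.7% of all genes were. Taken as a whole the family thus lay near the background in both lists. Both lists marked Cdh4, Cdh22, Pcdh1, Pcdh8, Pcdh10, Pcdh12, Pcdh17, Celsr2 and Celsr3, 9 members against 5.71% of all genes. Control alone marked Cdh6, Cdh11, Cdh15 and Pcdhgc3, 4 members against 5.94% of all genes. Eed cKO alone marked 0 members, which allows a share of up to 3.16%, against 1.70% of all genes. The intervals and limits cover counting error only and treat genes as independent. The 57 clustered genes lie side by side on chromosome 18, so values that include them are too narrow. Outside the clusters, 0 of 38 members were marked in Eed cKO alone, which leaves room for 7.89%.

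The counts are given by class, where 7.40% of all protein-coding genes were marked in Eed cKO and 11.7% in control. The other protocadherins were marked in 5 of 12 cases in Eed cKO (41.7%, 19.3 to 68.0) and in 5 of 12 in control, and the 5 genes were the same. Among Celsr genes, 2 of 3 were marked in each list. Classical cadherins were marked in 2 of 18 cases in Eed cKO (11.1%, 3.1 to 32.8) and in 5 of 18 in control (27.8%, 12.5 to 50.9). The clustered protocadherins, by far the largest class, were marked in 0 of 57 cases in Eed cKO, where a count of 0 leaves room for 5.26%, and in 1 of 57 in control (1.75%, 0.310 to 9.29). None of the 5 other Cdh genes was marked in either list (0 of 5). Outside the clusters the family was marked in 9 of 38 cases in Eed cKO (23.7%, 13.0 to 39.2) and 12 of 38 in control (31.6%, 19.1 to 47.5). These class sizes are small, the intervals of classical cadherins and other protocadherins overlap, and no difference between classes was tested. The clustered genes lie in 1 region and many share a gene end, so their limit and interval are too narrow.

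**Figure D1:**
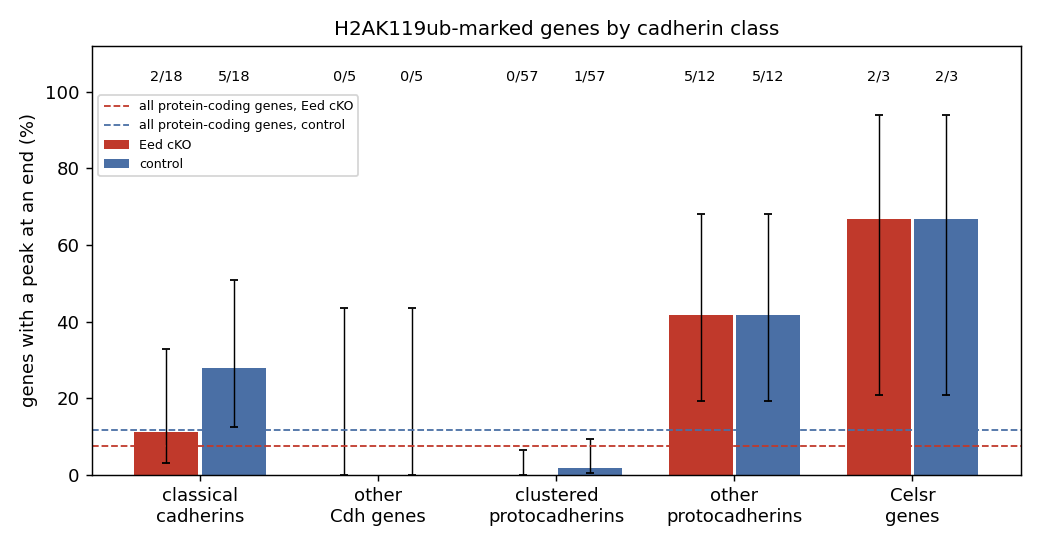
Percent of genes with an H2AK119ub peak within 2000 bp of a gene end, by class, for Eed cKO (left bar) and control (right bar), with 95% Wilson intervals, counts above the bars and dashed lines at the share of all protein-coding genes. The clustered protocadherins lie below both lines (0 of 57 and 1 of 57) and the other protocadherins above them (5 of 12 in each list).

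Of the 13 control-marked members, 9 were also marked in Eed cKO (69.2%, 42.4 to 87.3), beside 49.0% of all control-marked genes. By class these were 5 of 5 other protocadherins, 2 of 2 Celsr genes, 2 of 5 classical cadherins and 0 of 1 clustered protocadherins. In sequence, Eed cKO peaks covered 69.5% of the 93320 bp in control peaks at member ends, and 36.8% of the sequence in all control peaks. The latter include peaks away from gene ends, so these shares differ in location as well as in gene family. At the 4 members marked in control alone, Eed cKO peaks covered 0% of the control peak. The control peaks there were 3784 to 5292 bp wide, against 4597 to 11189 bp, with a median of 7032 bp, at the members marked in both lists. Over the whole lists the median width was 5169 bp in Eed cKO and 4327 bp in control. The peaks at member ends were wider than that median in 9 of 10 cases in Eed cKO and in 11 of 14 in control. Here too the whole lists include peaks away from gene ends.

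Peaks at a member end reached the end of no other gene. None of the 9 Eed cKO-marked members and none of the 13 control-marked members had a peak that reached an end of another protein-coding gene, which held for 56.0% of all Eed cKO-marked genes and 63.3% of all control-marked genes. The strand was given for 6 of the marked members in Eed cKO and 8 in control. All 6 and all 8 had a peak at the 5′ end, as did 78.9% and 84.1% of all marked genes with a known strand. The marked member with the farthest peak was Pcdh17 in Eed cKO, at 0.119 kb from the gene end, and Cdh6 in control, at 0.373 kb. The nearest peak outside the window lay 7345 bp from an end of Celsr1 in Eed cKO and 2440 bp from an end of Pcdh7 in control.

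**Figure D2:**
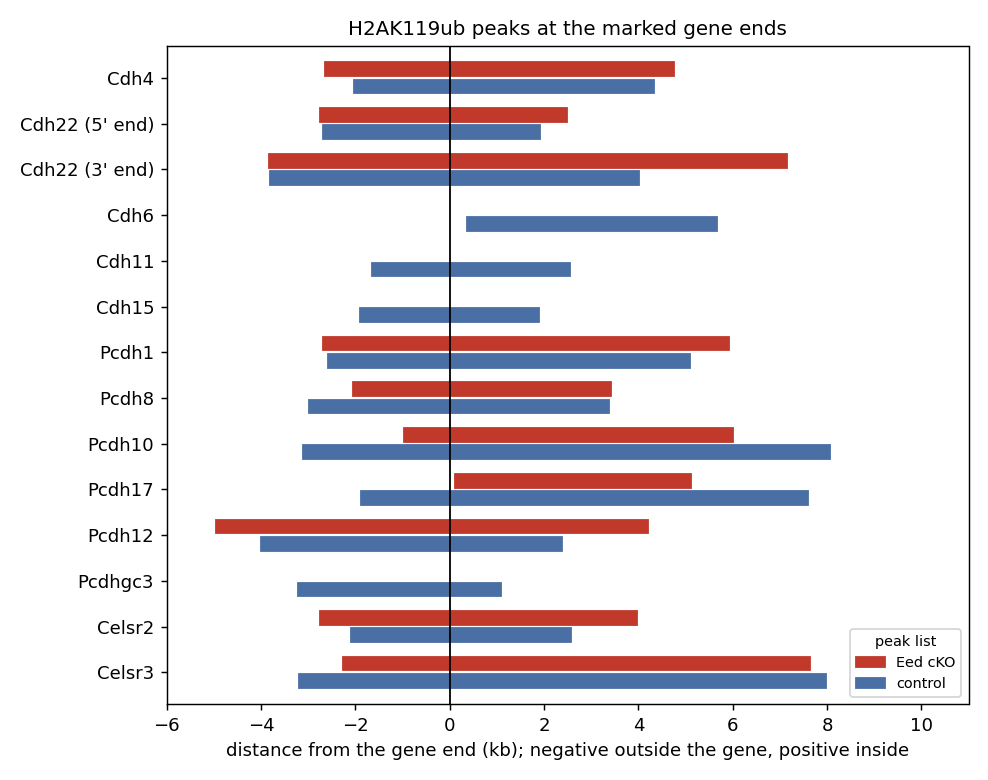
Extent of H2AK119ub peaks at the marked ends of member genes, in kb from the gene end, with positions inside the gene positive, for Eed cKO (upper bar) and control (lower bar) of each gene. Every bar crosses the gene end or ends within 0.373 kb of it, and Cdh6, Cdh11, Cdh15 and Pcdhgc3 have a control bar alone.

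Classical cadherins carry a cytoplasmic tail that binds catenins and so ties the junction to actin. The type I members include the epidermal cadherins Cdh1 and Cdh3, and neither had a called peak at a gene end in either list. Cdh1 (chr8:106603350-106670247) lay 200 kb from the nearest Eed cKO peak and 201 kb from the nearest control peak. Cdh3 lay beside it on the same chromosome, with the nearest peak 108 kb away in each list. Cdh2, the N-cadherin of neural tissue and heart, was 1526 kb from the nearest peak in each list. Of the 5 type I genes, 1 was marked in Eed cKO and 2 in control, beside 7.40% and 11.7% of all genes. The one marked in both lists was Cdh4, R-cadherin, first known from retina. Its peak at the lower-coordinate end of the gene on chromosome 2 was 7401 bp wide in Eed cKO and 6356 bp in control, and the Eed cKO peak held 100% of the control peak. Cdh15, the M-cadherin of muscle, had a 3784 bp control peak at its 5′ end (chr8:122846473-122850256). The nearest Eed cKO peak was 170 kb from Cdh15.

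Cdh4 also held peaks deep inside its span, and there the lists parted. Eed cKO had a 16.8 kb peak (chr2:179674574-179691416) that no control peak touched, 232 kb from the lower-coordinate end of the gene. Of the 760 peaks of Eed cKO that met none of control, 1 was wider than it, and their median width was 3606 bp. Control had a 1953 bp peak 29.9 kb further on (chr2:179721280-179723232), which no Eed cKO peak touched.

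Type II cadherins are known mainly from the nervous system, mesenchyme and vessels. Of the 13 genes, 1 was marked in Eed cKO and 3 in control, beside 7.40% and 11.7% of all genes. Cdh22, expressed in brain, was marked at both its ends in both lists. The peak at its 5′ end was 5241 bp wide in Eed cKO and 4597 bp in control. The peak at its 3′ end was 10988 bp wide in Eed cKO (chr2:165107657-165118644) and 7823 bp in control (chr2:165107689-165115511). The outer edges of these 3′ peaks lay 32 bp apart, and the Eed cKO peak reached 3133 bp further into the gene. Cdh6, a cadherin of kidney and neural crest, had a 5292 bp control peak near its 5′ end (chr15:13170743-13176034). Cdh11, a cadherin of osteoblasts and other mesenchymal cells, had a 4185 bp control peak (chr8:102782951-102787135) at its upper-coordinate end. The nearest Eed cKO peak was 1990 kb from Cdh6 and 1384 kb from Cdh11.

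The promoters of Cdh22 and Cdh6 are shown as those of the classical cadherins with the widest control peak in their marking state. Cdh22 was marked in both lists, with that widest peak at its 3′ end, and Cdh6 in control alone. The Cdh22 promoter lay wholly under a peak in both lists and the Cdh6 promoter under a control peak alone. The promoter of Cdh24 is added, after its values were seen, as the unmarked member with the most CG dinucleotides. All are RefSeq promoters of GRCm38, 300 bases each, from 250 bases before to 50 after the start site, with each CG in capitals. Cdh22 (chr2:165234688-165234987, minus strand) held 38 CG, Cdh6 (chr15:13173626-13173925, minus strand) 8 and Cdh24 (chr14:54641315-54641614, minus strand) 30. The median over the 17492 protein-coding genes with such a promoter was 15.
Cdh22: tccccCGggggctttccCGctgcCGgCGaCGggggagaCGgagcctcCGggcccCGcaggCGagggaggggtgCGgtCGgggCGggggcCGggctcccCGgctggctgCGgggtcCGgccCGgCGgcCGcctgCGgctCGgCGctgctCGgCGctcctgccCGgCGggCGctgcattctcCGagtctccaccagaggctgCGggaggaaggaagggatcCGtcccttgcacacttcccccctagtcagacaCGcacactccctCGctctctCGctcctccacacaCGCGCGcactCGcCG
Cdh6: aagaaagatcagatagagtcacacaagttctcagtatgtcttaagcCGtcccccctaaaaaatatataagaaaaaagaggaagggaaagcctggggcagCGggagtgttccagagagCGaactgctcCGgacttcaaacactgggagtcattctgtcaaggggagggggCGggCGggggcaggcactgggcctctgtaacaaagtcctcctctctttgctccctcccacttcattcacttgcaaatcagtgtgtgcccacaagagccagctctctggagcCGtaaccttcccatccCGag
Cdh24: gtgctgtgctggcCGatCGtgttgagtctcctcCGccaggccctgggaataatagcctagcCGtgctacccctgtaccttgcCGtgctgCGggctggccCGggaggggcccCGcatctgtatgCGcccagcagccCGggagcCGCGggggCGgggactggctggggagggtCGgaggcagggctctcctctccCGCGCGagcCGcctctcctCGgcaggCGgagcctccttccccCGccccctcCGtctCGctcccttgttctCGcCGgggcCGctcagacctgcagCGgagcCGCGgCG

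A promoter was given for 24 of the 95 members, so a comparison of base composition over the family is void, and the counts describe single genes. The promoter of Cdh15, the other member of control alone with an entry, held 7 CG, close to the 8 of Cdh6. These low counts were not general. Over all 972 genes of control alone with a promoter the median was 21.0 CG, and 68.8% held at least 15. The median of the 918 such genes of both lists was 22.0. The 6 members of both lists with an entry held 14 to 40 CG. The 16 members of neither list with an entry held 2, in Cdh10, to 30, in Cdh24. The median was 25.5 CG in the members of both lists and 11.5 in those of neither. At least 15 CG lay in 5 of the 6 (83.3%) and in 7 of the 16 (43.8%). This held for 72.5% of all genes marked in both lists and 47.1% of all genes marked in neither. The member values describe the 6 and the 16 genes with an entry only. A relation between CG number and marking in the family was not tested. The E-box CACCTG, the sequence bound by the Cdh1 repressors Snai1 and Zeb1 (CAGGTG on the other strand), was searched in the same windows. It lay in 4 of the 24 member promoters, those of Cdh7, Celsr2, Pcdh7 and Pcdh15, and in 19.4% of all 17492. Cdh1 and Cdh3 had no promoter entry, so their promoters were not searched. A match describes the letters only.

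**Figure D3:**
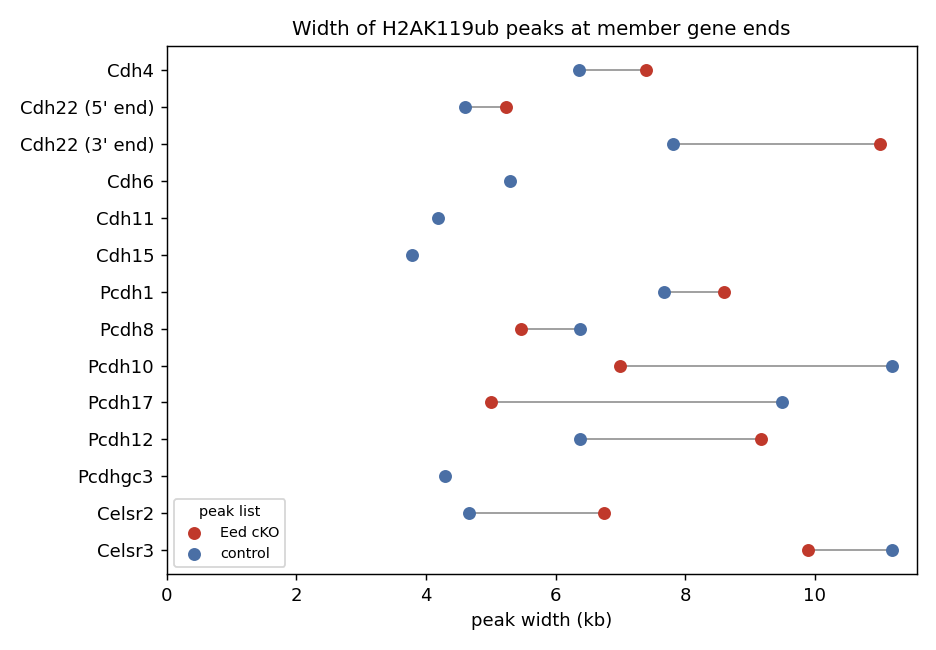
Width in kb of each H2AK119ub peak at a member end in Eed cKO (red) and control (blue), with a line joining peaks that overlap. Of the 10 joined pairs, 6 are wider in Eed cKO, among them Cdh4 and both ends of Cdh22, and 4 are narrower, among them Pcdh8, Pcdh10 and Pcdh17.

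Protocadherins outside the clusters lack the catenin-binding tail and are known for adhesion and axon sorting in the nervous system. The delta2 group was marked in 3 of 5 cases in both lists, beside 5.71% of all genes. Pcdh10, OL-protocadherin, had a 6988 bp peak in Eed cKO (chr3:45377423-45384410) inside an 11189 bp peak in control (chr3:45375279-45386467). Pcdh17 had a 4997 bp peak in Eed cKO inside a 9491 bp peak in control. Pcdh8, also called arcadlin, had a 5460 bp peak in Eed cKO and a 6383 bp peak in control. All 3 peaks were narrower in Eed cKO, with ratios of Eed cKO to control width of 0.625 at Pcdh10, 0.526 at Pcdh17 and 0.855 at Pcdh8. The median ratio over the 1470 pairs of 1 peak with 1 peak in the whole lists was 1.02, with quartiles of 0.737 and 1.41. Of all such pairs, 53.0% were wider in Eed cKO, and of the 10 pairs at member ends 6 were, with a median ratio of 1.13. Pcdh18 and Pcdh19, the other delta2 genes, had no peak at either end. Pcdh18 lay 2595 kb from the nearest Eed cKO peak and 623 kb from the nearest control peak.

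The control peak at Pcdh17 began 1887 bp before the gene start. The Eed cKO peak began 0.119 kb inside the gene and left the promoter window uncovered, with 0 of its 300 bases under the peak in Eed cKO and 300 in control. That window ended at position 84443612 and the Eed cKO peak began at 84443682, so the contrast rests on the place of a peak edge. Whether the promoter lost the mark was not tested. Eed cKO peaks lay over the promoter in the other 5 members of both lists that had an entry. At Pcdh10 the Eed cKO peak reached 975 bp upstream of the gene start and 6013 bp into the gene, and the control peak 3119 bp upstream and 8070 bp into it. Both covered all 300 bases of the Pcdh10 promoter. A second control peak, 2111 bp wide, lay 8.75 kb inside Pcdh17 and met no Eed cKO peak. The promoters of Pcdh10 (chr3:45378148-45378447, plus strand, 24 CG) and Pcdh17 (chr14:84443313-84443612, plus strand, 26 CG) are shown. Pcdh10 had the widest control peak of its class. Pcdh17 was chosen after its values were seen, since the 2 promoters differ in cover in Eed cKO at nearly equal CG number. Capitals mark CG.
Pcdh10: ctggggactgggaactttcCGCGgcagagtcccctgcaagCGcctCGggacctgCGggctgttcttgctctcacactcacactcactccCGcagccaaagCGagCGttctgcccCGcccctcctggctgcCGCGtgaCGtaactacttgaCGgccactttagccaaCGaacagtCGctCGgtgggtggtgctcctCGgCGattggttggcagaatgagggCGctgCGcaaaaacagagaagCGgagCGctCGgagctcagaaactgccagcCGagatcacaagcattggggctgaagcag
Pcdh17: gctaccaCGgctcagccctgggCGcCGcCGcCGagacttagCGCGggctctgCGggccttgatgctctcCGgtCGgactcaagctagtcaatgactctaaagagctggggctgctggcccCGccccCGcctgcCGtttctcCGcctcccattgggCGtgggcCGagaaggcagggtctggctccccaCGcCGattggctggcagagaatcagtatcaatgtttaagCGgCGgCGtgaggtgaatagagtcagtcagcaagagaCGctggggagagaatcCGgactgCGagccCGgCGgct

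Of the 4 delta1 genes, Pcdh1 was marked in both lists. Pcdh1, a protocadherin of airway and other epithelia, had an 8595 bp peak in Eed cKO (chr18:38206133-38214727) that held all of a 7681 bp peak in control (chr18:38206946-38214626). Its neighbour Pcdh12, the vascular endothelial protocadherin, had a 9169 bp peak in Eed cKO around a 6383 bp peak in control. Both peaks were thus wider in Eed cKO, by ratios of 1.12 at Pcdh1 and 1.44 at Pcdh12. Pcdh7, a second delta1 gene, was unmarked by the rule and yet had a control peak close to a start site. Its 3175 bp control peak (chr5:57718585-57721759) began 2440 bp inside the annotated span, 455 bp past the 300-base promoter window of the RefSeq start site. That start site lies 1936 bp inside the span. No Eed cKO peak lay within 5239 kb of Pcdh7. Pcdh9 and Pcdh11x, the remaining delta1 genes, lay 8565 and 16587 kb from the nearest Eed cKO peak, and 7835 and 9595 kb from the nearest control peak.

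The clustered protocadherins sit in 3 neighbouring arrays on chromosome 18 that span 912 kb in all. Neurons choose different first exons from these arrays, which gives single cells distinct surface identities. The Pcdha array (14 genes, 259 kb) and the Pcdhb array (22 genes, 256 kb) had 0 peaks in either list. The Pcdhg array (21 genes, 180 kb) had 0 peaks in Eed cKO and 1 in control. That control peak, 4302 bp wide (chr18:37803185-37807486), covered 2.39% of the array. It began 3225 bp before the start of Pcdhgc3 and ended 1076 bp inside it. Pcdhgc3 is a C-type isoform, a group that neurons express without the random choice of the other first exons. The starts of the other C-type genes Pcdhgc4 and Pcdhgc5 lay 7.59 and 12.1 kb from the peak, and that of Pcdhga12, on the other side, 37.6 kb.

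All Pcdhg genes share their last exons, so the gene spans overlap and 19 of the 21 hold at least part of this single peak. Counted by span rather than by gene ends, 11 members were marked in Eed cKO, beside 8.83% of all genes, and 34 in control, beside 13.7%, and 19 of the 34 rested on this peak. The nearest Eed cKO peak to the Pcdhg array lay 364 kb away and was the peak at Pcdh1. Among the 451 other protein-coding genes of chromosome 18, 5.10% were marked in Eed cKO and 12.0% in control. The chromosome held 48 Eed cKO peaks and 123 control peaks.

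**Figure D4:**
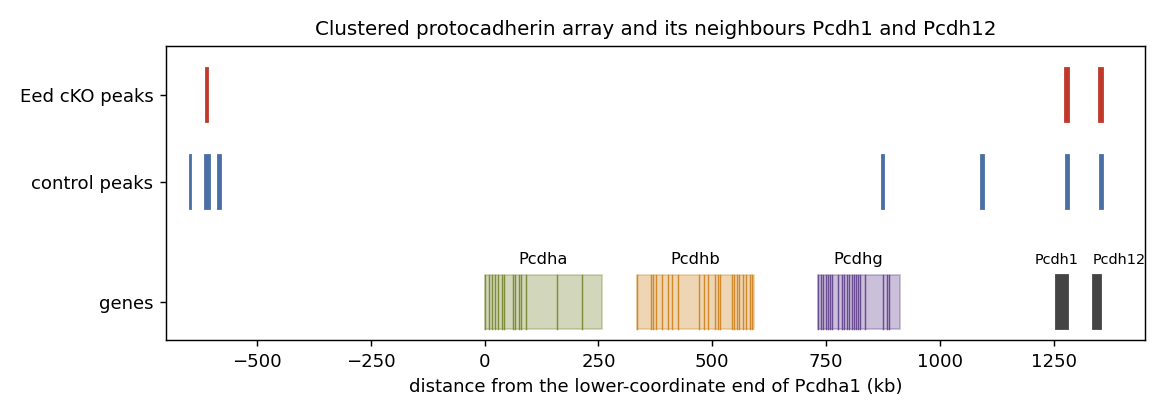
Map of the Pcdha, Pcdhb and Pcdhg arrays with Pcdh1 and Pcdh12, in kb from the lower-coordinate end of Pcdha1, with Eed cKO peaks in the upper row, control peaks in the middle row (drawn with a minimum line width) and gene spans below with a tick at each lower-coordinate gene end. The arrays hold 0 Eed cKO peaks and 1 control peak, while Pcdh1 and Pcdh12 have a peak in both rows.

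Celsr proteins are cadherins with a 7-pass membrane domain that set planar polarity, the common tilt of cells and hairs in a sheet. Celsr3, known for axon tract formation, had a 9894 bp peak in Eed cKO (chr9:108823762-108833655) inside an 11187 bp peak in control (chr9:108822823-108834009). Celsr2, known from neurons and ciliated ependymal cells, had a 6735 bp peak in Eed cKO around a 4667 bp peak in control. Eed cKO peaks were thus narrower than control at one and wider at the other, with ratios of 0.884 at Celsr3 and 1.44 at Celsr2. Celsr1, the member that aligns hair follicles in skin, had no peak at either end in either list. Inside its span Eed cKO had a 3675 bp peak that met no control peak and a 4199 bp peak around a 2031 bp control peak. The Celsr3 promoter (chr9:108825795-108826094, plus strand) is shown as that of the Celsr gene with the widest control peak. It held 25 CG, in capitals, and lay under a peak in both lists over all 300 bases.
Celsr3: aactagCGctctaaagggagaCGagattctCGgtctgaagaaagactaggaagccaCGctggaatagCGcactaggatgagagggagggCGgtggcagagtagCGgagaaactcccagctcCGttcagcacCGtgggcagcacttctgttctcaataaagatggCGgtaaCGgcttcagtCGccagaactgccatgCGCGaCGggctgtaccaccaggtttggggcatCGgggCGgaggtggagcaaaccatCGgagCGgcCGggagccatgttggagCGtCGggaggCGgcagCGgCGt

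The remaining Cdh genes encode unlike proteins and had no peak at an end. Cdh23, which forms the tip links of inner ear hair cells with Pcdh15, had a 6077 bp control peak inside its span, 6.12 kb from the upper-coordinate end, and its nearest Eed cKO peak was 94.8 kb away. Cdh13, the T-cadherin that is anchored by a lipid, had a 1252 bp Eed cKO peak inside its span, 115 kb from the upper-coordinate end, and no control peak. Peaks inside a span and away from its ends occurred without a peak at an end in 1.43% of all genes in Eed cKO and 2.06% in control. Cdh16 and Cdh17, of kidney and of liver and intestine, and Cdh26 had no peak over their spans.

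Of the 95 members, 17 (17.9%) lay over 1000 kb from the nearest Eed cKO peak and 12 (12.6%) over 1000 kb from the nearest control peak. Among all other protein-coding genes this held for 30.0% in Eed cKO and 18.1% in control, with every chromosome Y gene counted as that far. The 57 clustered genes lie in 1 region of 912 kb, and none of them was over 1000 kb from a peak. The family shares thus lean on that single region and do not show whether cadherin genes lie nearer to peaks or farther. All 17 and all 12 of these distant members were among the 38 genes outside the clusters. Of them, 15 of the 17 in Eed cKO and all 12 in control were marked in neither list, the others being Cdh6 and Cdh11. The type II genes Cdh6, Cdh9, Cdh10, Cdh12 and Cdh18 spread over 10.4 Mb of chromosome 15, where Eed cKO had 0 peaks and control had 1, the peak at Cdh6. Cdh20, Cdh7 and Cdh19 spread over 6.21 Mb of chromosome 1 with 2 Eed cKO peaks and 1 control peak, all away from these genes. In contrast Cdh5, the VE-cadherin of endothelium, lay 24.6 kb from an Eed cKO peak and 24.7 kb from a control peak.

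**Figure D5:**
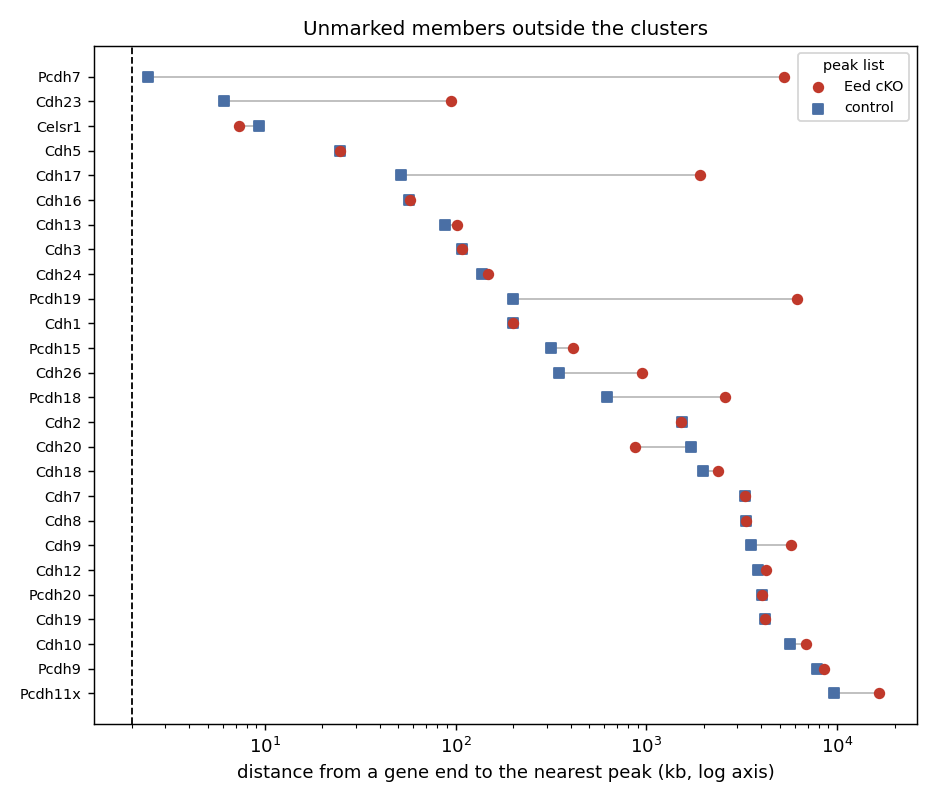
Distance in kb, on a log axis, from the nearer gene end to the nearest H2AK119ub peak for the 26 unmarked members outside the clusters, in Eed cKO (circles) and control (squares), with the 2000 bp window as a dashed line. The farthest point is Pcdh11x in Eed cKO at 16587 kb, the nearest is Pcdh7 in control at 2.44 kb, and the lists nearly coincide at Cdh1, Cdh2, Cdh3 and Cdh5.

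Genes that work with cadherins or repress Cdh1 were described by a list of 57 genes in 7 groups, all present in the annotation. In Eed cKO 7 of 57 were marked (12.3%, 6.08 to 23.2) and in control 13 of 57 (22.8%, 13.8 to 35.2), where all protein-coding genes were marked in 7.40% and 11.7% of cases. The list was drawn up with earlier results of these data known, so the intervals are not read against the background. Repressors of Cdh1 made up 2 of the 7 and 4 of the 13. The shares thus describe these genes only, and no excess was tested. Eed cKO alone marked 0 of 57, against 1.70% of all genes. The catenins and plaque proteins, which link cadherins to actin and keratin and include Ctnnb1, Jup and Dsp, were marked in 0 of 14 cases in either list. Inside their spans, away from the ends, Ctnna2 had a 2640 bp control peak and Ctnna3 a 5851 bp one, the latter at an end of Lrrtm3. No Eed cKO peak touched these. The desmosomal cadherins Dsg and Dsc, abundant in epidermis, were marked in 0 of 9 cases in either list. Among nectins, 1 of 4 was marked in each list, Nectin1, with a 1348 bp peak in Eed cKO and a 1342 bp peak in control. Control also had peaks of 6992 and 1402 bp inside Nectin1 that no Eed cKO peak touched.

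Among the giant Fat and Dachsous cadherins, 2 of 7 were marked in Eed cKO and 3 of 7 in control. Fat3 had a 2810 bp peak in Eed cKO inside a 6958 bp control peak, Dchs2 had 5514 bp in Eed cKO and 6279 bp in control, and Fat4 had a 7486 bp peak in control alone. Of the other genes with cadherin repeats, Clstn2 and Cdhr2 were marked in both lists, and Cdhr3 and Ret had a peak at an end in control alone. Inside the Cdhr3 span Eed cKO did have an 8615 bp peak, which lay wholly within a 15238 bp control peak. The Cdhr2 peaks also reached an end of Gprin1, and the Dchs2 peaks an end of Gm10710. Of the planar polarity partners of Celsr, 0 of 9 were marked in Eed cKO and 1 of 9 in control, Prickle2 (2499 bp). Prickle1 had a 714 bp control peak inside its span alone.

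The transcription factors that repress Cdh1 were marked in 2 of 5 cases in Eed cKO (11.8 to 76.9%, background 7.40%) and 4 of 5 in control (37.6 to 96.4%, background 11.7%), and Cdh1 itself was not marked. These are few genes, and no difference was tested. Snai1 had peaks of nearly equal width, 15054 bp in Eed cKO and 15327 bp in control. Zeb1, with a 7920 bp control peak, and Zeb2, with a 16701 bp control peak, had no peak in Eed cKO. Snai2 had no peak at an end in either list. Twist1 had a 1665 bp peak in Eed cKO within a 29995 bp control peak, of which it covered 5.55%.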

How the data were processed

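H2AK119ub was profiled by chromatin immunoprecipitation and sequencing. The authors deposited 1 peak list per genotype with chromosome, start and end in mm10, per the file headers. Per the submitters' processing notes, reads were handled with SAMtools 1.9 and Bowtie2 2.3.3.1. How libraries were joined, whether inputs were used and which caller made the peaks is not given in the sources used here. Depth is unknown.

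Starts were moved to 1-based positions. Gene spans came from RefSeq (GRCm38.p6), and a peak overlapping a window by 1 bp or more marked the gene. Coverage is the share of a control peak's bases under Eed cKO peaks. Shares carry 95% Wilson intervals, and a count of 0 is given the limit that 3 counts allow. RefSeq promoters were given for 24 members, and where a gene had several the one with most CG was used. Without replicates no test was run. The members, classes and lists were chosen with earlier results of these data known. Named are all marked members and partner genes and Cdh1, Cdh3 and Celsr1; other genes were named after their values were seen. Printed promoters follow the widest control peak of a class and marking state outside chromosome 18, except those of Cdh24 and Pcdh17, chosen after their values were seen. The functions were checked on simulated data. Alternatives changed windows, peak lists and overlap. The scripts ran under Python 3.11.15 with pandas 2.3.3, numpy 2.4.6, matplotlib 3.10.9 and scipy 1.17.1.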

Additional observations from a re-analysis of the deposited data

How the results depend on the processing

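Of 124 alternative values 11 moved, all of them counts that differed by more than 1.5 times from the reported one or were 0 in 1 of the settings compared. Some of these moves lie within the interval of the reported share. With the whole gene span as the window, 1 member was marked in Eed cKO alone, 24 by control alone and 34 by control in all, with 19 clustered protocadherins in control and 1 other Cdh gene in Eed cKO and 1 in control. The rise in the clustered genes comes from the single peak in the Pcdhg array. With that window 8.83% of all genes were marked in Eed cKO and 13.7% in control. Keeping the peaks wider than the median of each list removed the peak at Pcdh17 from Eed cKO and those at Cdh11, Cdh15 and Pcdhgc3 from control. Then 2 members were marked in control alone, and 3 classical cadherins and 0 clustered protocadherins in control. Of the 57 partner genes 2 were marked in Eed cKO. With these peaks 4.82% of all genes were marked in Eed cKO and 7.83% in control. With a window of 1000 bp, 4 of the 57 partner genes were marked in Eed cKO, and the members' counts stayed at 9 in Eed cKO and 13 in control. That window marked 6.74% of all genes in Eed cKO and 10.6% in control. A window of 5000 bp, or one placed also at RefSeq start sites (chosen after seeing the data), added Pcdh7 in control. The control list trimmed to its widest peaks, as many as Eed cKO has, lost Cdh15. The window of 5000 bp marked 13.7% of all genes in control, and the trimmed list 8.32%. Windows at the 5′ end alone were not run, since a promoter was given for 24 of 95 members. For the same reason the observed over expected CpG ratio is a description only: its median was 0.847 in the members of both lists, 0.517 in those of neither and 0.608 over all genes with a promoter. No paired analysis was possible because each genotype has 1 peak list, so no library could be left out either. Unknown depth limits all counts.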
